A study of Mus musculus with 3 samples.

Results

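Macrophages are tissue phagocytes whose gene expression follows the signals around them. Interleukin 4 and interleukin 13 act through the transcription factor STAT6 and turn on a set of genes known as alternative activation, which holds arginase 1, the mannose receptor and the secreted proteins encoded by Retnla and Chi3l3. Interferon gamma and bacterial products turn on inducible nitric oxide synthase, encoded by Nos2, which uses the same amino acid, arginine, as arginase does. The balance of Arg1 to Nos2 is often used in mouse tumours to describe the state of their macrophages.

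The values described here are those of 10 genes, 9 of which are used as markers of alternatively activated or tumour-associated macrophages, with Nos2 beside them. They are the rows whose identifier equals Arg1, Mrc1, Retnla, Chi3l3 (now named Chil3), Cd163, Msr1, Mgl2, Trem2, Gpnmb or Nos2, and all 10 were found once among 21881 gene symbols. All 10 passed the filters of the level test, 7 averaged the 1 FPKM or more that the main test between tumours needed, and the other 3 (Chi3l3, Gpnmb and Nos2) entered an alternative of it without that minimum.

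Total RNA was sequenced from 3 tumours, each from a different female FVB/N mouse per the series' design text, and all 3 belong to a single group. Cells of NDL(UCD), 1 transplantable mammary tumour line of an ErbB2 model, had been grown in culture and put into the fat pads of mice of 6 to 8 weeks, on both sides and without clearing the pads, so that host fat and other host cells remained. The dose varied from 0.1 to 2 in units of 1000000 cells, tumours were frozen at a width of 5 to 10 mm, and no treatment is named in the labels. There is no normal gland, untransplanted cell or other tumour beside them, and the values therefore support comparisons between genes and between the 3 tumours only.

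Expression is in FPKM, fragments per kilobase of transcript and per 1000000 fragments, which allows levels of different genes to be set side by side. Each value came with an interval from the authors' software, whose half-width was read as 2 standard errors of counting. In units of 1000000, the intervals corresponded to 11.7, 12.4 and 13.4 fragments in tumours 1, 2 and 3, and they cover counting error only. Tumour 1 stood apart in base composition: relative to the mean of the tumours, genes with a GC content at the tenth percentile were 0.56 log2 units higher there, and genes at the ninetieth percentile were lower by -0.45. In tumour 3 the same trend ran the other way, at -0.49 and 0.33. Values with these GC trends and the smaller length trends removed are given beside the results on the members and the counts of calls between tumours. The median gene was 0.38 log2 units higher in tumour 3 than in tumour 1, and 0.28 higher in tumour 2 than in tumour 1. In the tumour epithelium list, 7 of 7 genes were above 1 FPKM (54.2% of all genes were), and Erbb2 lay at 200, 195 and 190 FPKM.

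Macrophage markers were present in all 3 tumours. Of 16 general macrophage genes, 16 were above 1 FPKM, by limma at a p below 0.05 after Benjamini-Hochberg adjustment, a call made for 54.2% of all 18028 genes tested. Csf1r, the receptor for the macrophage growth factor, lay at 7.73, 15.9 and 22.8 FPKM in tumours 1, 2 and 3. The summed level of the list was 367, 671 and 1161 FPKM. Of these genes 12 of 16 differed between tumours, all 12 with tumour 3 highest, against 32.5% of all genes for the call and 13.2% for the call with tumour 3 highest. With GC and length trends removed 6 of the 16 were called, all 6 with tumour 3 highest, against 15.5% and 6.37%. Csf1r was among those that lost the call. The mean log2 level of the list was 2.27-fold higher in tumour 3 than in tumour 1, or 1.70-fold with GC and length trends removed. In bulk tissue, fewer cells of a type and less RNA per cell cannot be told apart.

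The start regions of Retnla and Chi3l3, the secreted members turned on by STAT6, each hold a spaced TTC and GAA pair of the kind that STAT factors recognise. They are shown here because they are the members whose windows hold such a pair. The 250 bases before the RefSeq start of each gene on GRCm38.p6 are written 5′ to 3′ on the gene's strand, with the pair and its spacer in capitals.
Retnla, chr16:48842359-48842608, plus strand: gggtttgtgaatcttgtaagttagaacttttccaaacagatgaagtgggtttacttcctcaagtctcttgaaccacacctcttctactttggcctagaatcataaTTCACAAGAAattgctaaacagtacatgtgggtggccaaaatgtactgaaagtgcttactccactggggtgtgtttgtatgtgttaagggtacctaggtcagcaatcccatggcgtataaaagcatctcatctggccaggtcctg
Chi3l3, chr3:106167565-106167814, minus strand: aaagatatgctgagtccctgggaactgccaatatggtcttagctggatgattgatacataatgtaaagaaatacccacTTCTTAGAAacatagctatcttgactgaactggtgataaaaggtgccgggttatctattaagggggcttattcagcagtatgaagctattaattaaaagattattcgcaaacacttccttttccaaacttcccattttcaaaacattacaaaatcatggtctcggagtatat
The Retnla window holds TTCNNNNGAA, the spacing preferred by STAT6, from 145 to 136 bases before the start. The Chi3l3 window holds TTCNNNGAA, the spacing shared by other STAT factors, from 172 to 164 bases before the start. Of 7 members with a RefSeq window, 1 held TTCNNNNGAA and 1 held TTCNNNGAA. Among all 32851 mouse windows of this length, 5.85% held the first and 7.02% the second, both of which read the same on either strand. The motif CACGTG of the MITF family, which is known to act on Gpnmb, was in 0 of the 7 windows and in 6.02% of all windows. CATGTG, searched on both strands, was in the windows of Mrc1 and Retnla and in 12.3% of all windows. Arg1, Msr1 and Nos2 are named without a window. These matches describe the sequence and are not evidence of binding.

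**Figure D1:**
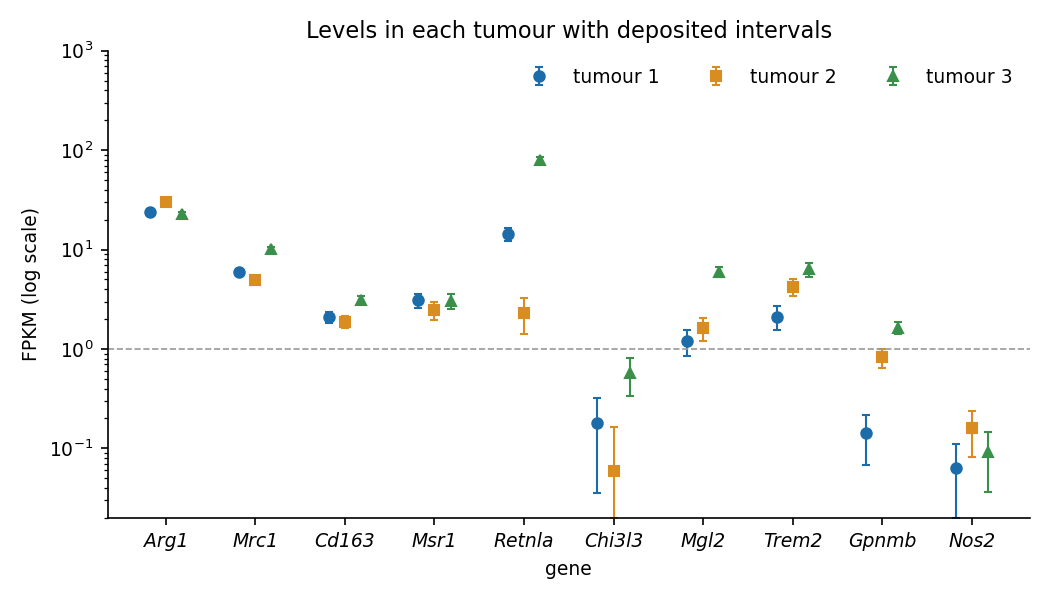
FPKM of the 10 genes in tumours 1 (circles), 2 (squares) and 3 (triangles) on a log axis, with the deposited intervals as bars; bars that reach below 0.02 FPKM run off the axis, and the dashed line marks 1 FPKM. Arg1 lies between 22.5 and 29.9 FPKM, Retnla runs from 2.32 to 79.8 FPKM and Nos2 reaches 0.158 FPKM at most.

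Arginase and nitric oxide synthase, the enzymes that compete for arginine, were far apart in every tumour. Arg1, which turns arginine into ornithine and urea (mm9 chromosome 10, 24635013 to 24647276), lay at 23.8, 29.9 and 22.5 FPKM in tumours 1, 2 and 3. Its values rested on 894, 1078 and 906 implied fragments, with tumour 2 highest. The tumours differed beyond counting error (Cochran's Q adjusted p = 1.5e-09) but only by a factor of 1.33. The mean of Arg1, 25.4 ± 3.91 FPKM (SD, n = 3), was above 1 FPKM (limma adjusted p = 2e-07). It stood above 93.0%, 93.5% and 91.4% of all gene symbols in the 3 tumours. Nos2, the inducible nitric oxide synthase (mm9 chromosome 11, 78734361 to 78773626), lay at 0.0628, 0.158 and 0.0921 FPKM. These values rested on 7, 17 and 11 implied fragments, so their order is not resolved by counting: the test between tumours gave an adjusted p of 0.13 (Cochran's Q over all genes listed above 0 in all tumours). Nos2 was below 1 FPKM (limma adjusted p = 9e-06), a call made for 32.5% of all genes tested.

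The excess of Arg1 over Nos2 on the log2(FPKM + 0.1) scale was 7.20, 6.86 and 6.88 in tumours 1, 2 and 3. Mrc1 exceeded Nos2 by 5.23, 4.27 and 5.72 on the same scale. With Nos2 near the pseudocount of 0.1 FPKM, both differences understate the ratio. Arg2, the mitochondrial arginase, was lower than Arg1, at 2.95, 4.30 and 2.58 FPKM. Arg1 exceeded it by 2.94 ± 0.16 log2 units (SD, n = 3), a 7.67-fold difference seen in 3 of 3 tumours. Nos3, the endothelial synthase, was above Nos2 in 3 of 3 tumours at 0.216, 0.522 and 0.363 FPKM, and the neuronal form Nos1 was listed at 0 in all of them. Inducible synthase was thus not the highest of its family here. An exact sign-flip permutation test over 3 tumours cannot give a two-sided p below 0.25. Of the 14 fixed pairs of genes, 13 reached that value (exact p = 0.25, Benjamini-Hochberg adjusted p = 0.269) and Mgl2 against Clec10a did not (exact p = 0.5, adjusted p = 0.5).

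Genes that supply arginine or use its products were read beside Arg1 in the same bulk tumours. Of 24 arginine genes tested, 15 were above 1 FPKM, 6 below and 3 neither, that is 62.5% above against 54.2% of all genes. The share above is near that of all genes and is no result about these genes. Ornithine feeds polyamine synthesis through ornithine decarboxylase, encoded by Odc1, at 11.6, 21.1 and 25.6 FPKM, and proline synthesis through ornithine aminotransferase, encoded by Oat, at 29.6, 43.0 and 44.7 FPKM. The polyamine acetyltransferase gene Sat1 was the highest of the list at 207 ± 45.9 FPKM (SD, n = 3). Arginine is remade from citrulline by Ass1, at 27.6, 44.4 and 40.6 FPKM, and Asl, at 4.89, 9.66 and 8.25 FPKM. The 2 main cationic amino acid transporters differed: Slc7a1 lay at 2.98, 5.20 and 5.93 FPKM, whereas Slc7a2, the one linked to activated macrophages, was below 1 FPKM at 0.396, 0.551 and 0.740 FPKM. Amd1 was listed at 0.00148 ± 0.000272 FPKM (SD, n = 3), but it has a close copy in the mouse genome and its value is uncertain. Of 18 arginine genes averaging 1 FPKM or more, 3 differed between tumours (Odc1, Srm and Gch1), against 32.5% of all genes. With GC and length trends removed the count was again 3, against 15.5%, but only Gch1 was in both: Odc1 and Srm fell to ratios of 1.37 and 1.67, while Azin1 and Gatm reached 2.50 and 2.03. These enzymes also work in tumour and stromal cells, and which cells held them was not tested.

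**Figure D2:**
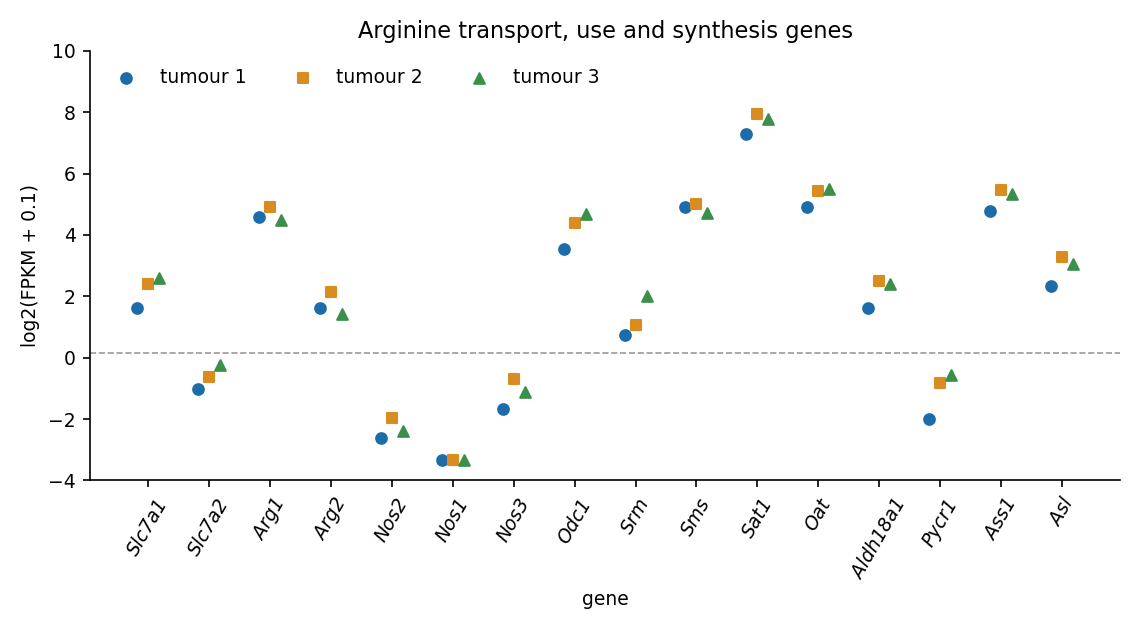
Levels of 16 genes of arginine transport, use and synthesis in tumours 1 (circles), 2 (squares) and 3 (triangles), as log2(FPKM + 0.1); the dashed line marks 1 FPKM. Arg1 lies above Arg2 in each tumour, and Nos2 and Nos3 lie below the line with Nos1 listed at 0.

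The surface receptors Mrc1, Cd163 and Msr1 were all above 1 FPKM and varied little beside the secreted markers. Mrc1, the mannose receptor that clears glycoproteins (mm9 chromosome 2, 14151041 to 14253650), lay at 6.00, 4.90 and 10.0 FPKM in tumours 1, 2 and 3. Its level was 2.05-fold higher in tumour 3 than in tumour 2, and the tumours differed beyond counting error (Cochran's Q adjusted p = 2.4e-61). Such a call needs an adjusted p under 0.05 and a ratio of at least 2, and with median-of-ratios scaling Mrc1 missed the second at 1.97. The call was also lost without tumour 2, at a ratio of 1.67, and without tumour 3, at 1.22. With GC and length trends removed the ratio was 3.18, with 4.31, 5.02 and 13.7 FPKM in the 3 tumours, so the lowest tumour was then tumour 1 and not tumour 2.

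Cd163, the receptor for haemoglobin bound to haptoglobin (mm9 chromosome 6, 124254669 to 124280545), lay at 2.08, 1.88 and 3.13 FPKM. Mrc1 had the same order as deposited, but the Cd163 intervals of tumours 1 and 2 overlap. With GC and length trends removed Cd163 lay at 2.115, 1.79 and 3.26 FPKM, with tumour 2 still lowest, unlike Mrc1. As deposited, Cd163 differed beyond counting error (Q adjusted p = 6.1e-10) but only 1.67-fold, under the ratio required. Its mean log2 level was above 1 FPKM (limma adjusted p = 0.0037), a call lost without tumour 2 (adjusted p = 0.053). Mrc1 exceeded Cd163 by 1.49 ± 0.16 log2 units (SD, n = 3), with 1.49, 1.34 and 1.65 in tumours 1, 2 and 3. The ratio of Cd163 to Mrc1 was 0.346, 0.384 and 0.312 as deposited. After removal of the trends the ratio was 0.490, 0.356 and 0.238, so the near constancy holds for the deposited values only. Msr1, the class A scavenger receptor (mm9 chromosome 8, 40667054 to 40728032), lay at 3.08, 2.46 and 3.06 FPKM and was not separated between tumours (Q adjusted p = 0.16, ratio 1.25). Its transcript has the lowest GC content of the 10 genes, 38.4%. With the trends removed it lay at 1.55, 2.89 and 4.98 FPKM, a 3.21-fold range that passed the test, so the evenness of Msr1 depends on that correction.

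Relatives of these receptors were mixed in level. Marco, another class A scavenger receptor, was near absent at 0.0191, 0.0396 and 0.0178 FPKM, and Msr1 exceeded it by 4.56 ± 0.31 log2 units (SD, n = 3). Mrc2, the collagen-binding relative of Mrc1, lay at 1.505, 3.18 and 3.32 FPKM, and Mrc1 exceeded it by 1.37 ± 0.68 log2 units in 3 of 3 tumours. In the list of scavenger and C-type lectin receptors 11 of 19 genes (57.9%) were above 1 FPKM and 4 below, close to the 54.2% of all genes. The highest were Cxcl16, a chemokine that also binds oxidised lipids, at 10.5 ± 4.46 FPKM, Scarb1 at 8.73 ± 2.88 FPKM and Clec4n at 8.54 ± 3.96 FPKM (SD, n = 3). Of 13 tested, 9 differed between tumours and 8 of those were highest in tumour 3, against 32.5% and 13.2% of all genes. With the trends removed 5 differed, all 5 highest in tumour 3, against 15.5% and 6.37%. Genes of haemoglobin, haem and iron handling were above 1 FPKM in 9 of 10 cases (54.2% of all genes were). Among them were Hmox1, haem oxygenase, at 3.17, 6.63 and 6.95 FPKM, and the ferritin gene Fth1 at 1613 ± 421 FPKM (SD, n = 3), while Hpx, for haemopexin, was below it at 0.0958 ± 0.108 FPKM (SD, n = 3).

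Mrc1 is also carried by lymphatic and sinusoidal endothelium, and Lyve1, found on those cells and on some macrophages, lay at 1.03, 0.705 and 1.36 FPKM. The ratio of Mrc1 to Lyve1 was 5.81, 6.95 and 7.39 as deposited, and 4.54, 7.49 and 8.76 with the trends removed. The endothelial markers Stab2 and Prox1, which define sinusoidal and lymphatic cells, were near 0, at 0.0223 ± 0.0163 and 0.0204 ± 0.0142 FPKM (SD, n = 3). The summed level of the 8 endothelial markers was 16.3, 23.9 and 24.9 FPKM, and 19.9, 22.1 and 21.8 FPKM with the trends removed. The part of endothelial cells in the Mrc1 values was not tested.

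Retnla varied more between the tumours than any other member. Retnla, which encodes the secreted resistin-like molecule alpha (mm9 chromosome 16, 48842665 to 48844574), lay at 14.3, 2.32 and 79.8 FPKM in tumours 1, 2 and 3. These levels rested on 166, 26 and 994 implied fragments and their deposited intervals do not overlap, at 12.1 to 16.5, 1.41 to 3.24 and 74.7 to 84.8 FPKM. Tumour 3 was thus 34.3-fold above tumour 2 (Q adjusted p = 3.4e-210). A range of at least 10-fold was found in 34 of the 11058 genes averaging 1 FPKM or more, or 0.307%. The range was 33.0-fold with median-of-ratios scaling and 37.6-fold with GC and length trends removed. Retnla still ranged 5.59-fold without tumour 2 and 6.14-fold without tumour 3, and the call held in both cases. Retnla was the second highest member in tumour 1, the fifth in tumour 2 and the highest in tumour 3, where it stood above 97.4% of gene symbols. Its mean of 32.1 ± 41.7 FPKM (SD, n = 3) was not separated from 1 FPKM over the tumours (limma adjusted p = 0.088), although each tumour was listed above that level. Under 6 of the 10 other settings of this test it was.

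Chi3l3 encodes Ym1, a secreted chitinase-like protein without enzyme activity (mm9 chromosome 3, 105950472 to 105970482). It was low throughout, at 0.179, 0.0595 and 0.569 FPKM from 6.2, 1.3 and 24.0 implied fragments, and the mean was below 1 FPKM (limma adjusted p = 0.0028). The call was lost without tumour 1, without tumour 2 and with each tumour rescaled to a total of 1000000 FPKM, where the mean log2 levels against 1 FPKM were -1.75, -1.35 and -0.74. Its tumours were listed in the same order as those of Retnla, with tumour 2 lowest and tumour 3 highest, a 9.58-fold range (Q adjusted p = 0.00049 over all genes listed above 0). The intervals of tumours 1 and 2 overlap, at 0.0352 to 0.323 and 0 to 0.165 FPKM, so only tumour 3 was apart. The size of the range rests on the 1.3 fragments of tumour 2. Retnla exceeded Chi3l3 by 5.50 ± 1.495 log2 units (SD, n = 3). Chi3l3 shares sequence with its neighbours: 40.4% of all stretches of 36 bases in its transcript also occur in transcripts of other genes, most often Chil4, and 29.4% of stretches of 50 bases do. The fragments of Chi3l3 could therefore be divided between copies, and its value is uncertain. Chi3l4, the older name of Chil4, was listed at 0.0812, 0.0135 and 0.0485 FPKM. By contrast Chi3l1, a chitinase-like gene of epithelium and macrophages, lay at 2383 ± 1066 FPKM (SD, n = 3) and was far above Chi3l3 in each tumour, with Chi3l3 minus Chi3l1 at -12.08, -14.03 and -12.26.

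Mgl2 encodes a galactose-binding lectin, CD301b, of macrophages and of some dendritic cells (mm9 chromosome 11, 69943859 to 69951044). It lay at 1.21, 1.62 and 6.00 FPKM from 47, 61 and 254 implied fragments, and tumour 3 was apart from the other 2, whose intervals overlap. The range was 4.96-fold (Q adjusted p = 1.1e-29), and 3.49-fold with GC and length trends removed. Without tumour 3 the ratio was 1.34 and the call was lost. Its neighbour and closest relative Clec10a, which encodes CD301a, lay at 1.13, 2.19 and 10.5 FPKM, also with tumour 3 highest. Mgl2 minus Clec10a was 0.09, -0.41 and -0.80 log2 units, so neither gene was higher in all 3 tumours. Of stretches of 36 bases in the Mgl2 transcript, 23.9% occur in other genes, chiefly Clec10a with 20.4%, so the split between both genes is uncertain. Mgl2 was above 1 FPKM at 2.95 ± 2.65 FPKM (SD, n = 3; limma adjusted p = 0.038). The level call was lost when any 1 tumour was left out, with pseudocount 1, with median-of-ratios scaling and without trend or robust moderation.

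The summed markers of fat, eosinophils, dendritic cells and neutrophils were highest in tumour 3, as Retnla, Chi3l3 and Mgl2 were. The adipocyte hormone gene Adipoq lay at 3.20, 1.51 and 12.3 FPKM in tumours 1, 2 and 3, and Lep, for leptin, at 0.234, 0.220 and 2.62 FPKM. Plin1 lay at 0.289, 0.279 and 2.01 FPKM, and Cidec, lowest in tumour 1 instead, at 0.884, 1.11 and 5.31 FPKM. The summed level of 5 adipocyte markers was 60.3, 44.7 and 195 FPKM, with none at 0. Most of each sum came from 1 gene, Fabp4, at 55.7, 41.6 and 173 FPKM. Trend removal gave sums of 41.2, 47.9 and 266 FPKM, so tumour 1 and not tumour 2 was then lowest. Retnla is known to be expressed in adipose tissue as well as in macrophages. The ratio of Retnla to Adipoq was 4.46, 1.54 and 6.46, a 4.19-fold range against 34.3-fold for Retnla alone. Relative to Fabp4, another gene of the adipocyte list, the ratios were 0.256, 0.0559 and 0.462, an 8.26-fold range. Relative to Csf1r the ratios for Retnla were 1.85, 0.146 and 3.50, a 23.9-fold range, and relative to Emr1 the range was 24.4-fold. Relative to Mgl2, another member, the ratios were 11.8, 1.43 and 13.3, a 9.3-fold range near that for Fabp4. Adipoq was also the gene nearest to Retnla in a search added after the Retnla values were seen. Its narrower range is thus partly a matter of selection. Retn, which encodes the adipocyte protein resistin, was listed at 0.334, 0.154 and 1.52 FPKM. The part of fat in the Retnla values was not tested.

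Eosinophils, the cells known to supply interleukin 4 in fat, were represented by 7 markers whose summed level was 0.116, 0.0860 and 1.93 FPKM. All 7 were below 1 FPKM, a call made for 32.5% of all genes. The granule genes Prg2 and Epx were listed at 0 in tumours 1 and 2 and at 0.200 and 0.0127 FPKM in tumour 3. Dendritic cell markers summed to 6.06, 10.1 and 14.7 FPKM, with 2 of 8 above 1 FPKM (25.0%, against 54.2% of all genes). Itgax gave the largest part of each sum, at 3.72, 6.76 and 9.05 FPKM, and rose in the same order as Csf1r. Xcr1 was highest in tumour 2, at 0.0240, 0.199 and 0.0522 FPKM, and the other markers in tumour 3. Cd209a, a lectin of monocyte-derived dendritic cells, lay at 0.689, 0.469 and 2.60 FPKM. Neutrophils, which can also hold Ym1, had 3 of 9 tested markers above 1 FPKM (33.3%, against 54.2% of all genes). Their sum was 12.0, 32.0 and 37.7 FPKM. Ltf, the lactoferrin gene, which mammary epithelium also expresses, lay at 6.72, 18.3 and 7.22 FPKM, and without it the sum was 5.28, 13.6 and 30.5 FPKM. Their granule genes Elane and Fcnb were listed at 0 in all 3 tumours and Mpo at 0, 0.0452 and 0.0135 FPKM. The part of these cells in the values of Chi3l3 and Mgl2 was not tested.

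**Figure D3:**
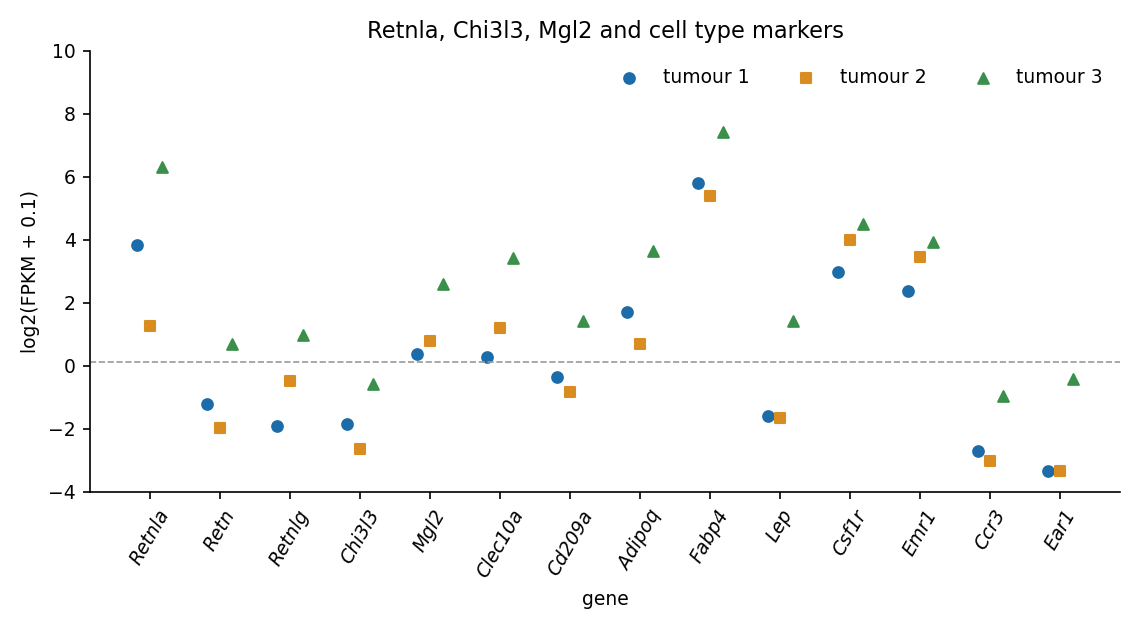
Levels of Retnla, Chi3l3, Mgl2, their relatives and markers of adipocytes, macrophages and eosinophils in tumours 1 (circles), 2 (squares) and 3 (triangles), as log2(FPKM + 0.1); the dashed line marks 1 FPKM. Each of the 14 genes is highest in tumour 3, and Retnla, Retn, Chi3l3, Cd209a, Adipoq, Fabp4, Lep and Ccr3 are lowest in tumour 2. The deposited intervals of tumours 1 and 2 overlap for Retn, Chi3l3, Cd209a and Ccr3, so that order is not resolved for them. Lep is nearly level in tumours 1 and 2, and Ccr3 is lowest in tumour 1 with GC and length trends removed. The 14 genes are a selection: the macrophage genes Cd14, Cx3cr1 and Mertk, not shown, are highest in tumour 2. The adipocyte gene Cidec, also not shown, is lowest in tumour 1. Ear1 rests on 9 implied fragments in tumour 3 and is listed at 0 in tumours 1 and 2.

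Trem2 and Gpnmb, markers of lipid-laden and tumour-associated macrophages, were lowest in tumour 1 and highest in tumour 3. Trem2, a lipid-sensing receptor (mm9 chromosome 17, 48485726 to 48491598), lay at 2.11, 4.23 and 6.30 FPKM from 55, 106 and 176 implied fragments. Tumour 3 was 2.99-fold above tumour 1 as deposited (Q adjusted p = 7.4e-14). The Trem2 transcript is the most GC-rich of the 10, at 57.5%, and with GC and length trends removed its values were 3.12, 3.84 and 4.73 FPKM, a ratio of 1.52 that fell short of the 2 required. Without tumour 1 the ratio was 1.49, also too small. The level of Trem2 was above 1 FPKM (limma adjusted p = 0.00061), a call lost without tumour 2 (adjusted p = 0.081) and without tumour 3 (adjusted p = 0.051). Trem2 nonetheless kept close to general macrophage genes on either scale. The ratio of Trem2 to Csf1r was 0.273, 0.266 and 0.276 as deposited, and 0.312, 0.260 and 0.248 in the same order after that removal. Tyrobp, the adaptor through which TREM2 signals, lay at 23.5, 44.4 and 56.4 FPKM and exceeded Trem2 by 3.42, 3.36 and 3.14 log2 units. Trem1, the inflammatory relative, was below 1 FPKM at 0.170, 0.265 and 0.385 FPKM, and Trem2 exceeded it by 3.44 ± 0.36 log2 units (SD, n = 3).

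In a list of other TREM receptors and of genes associated with TREM2, 11 of 19 were above 1 FPKM, or 57.9% against 54.2% of all genes. The 5 below it were Trem1, Trem3, Treml1, Treml2 and Hcst. The most abundant were Spp1, for osteopontin, at 733, 1275 and 287 FPKM, and Apoe, the lipid carrier bound by TREM2, at 321, 767 and 976 FPKM. Of 12 tested, 9 differed between tumours, 8 of them with tumour 3 highest, against 32.5% and 13.2% of all genes. With the trends removed 5 differed, 4 of them with tumour 3 highest, against 15.5% and 6.37%, and Apoe lost the call. Spp1 was the exception and was lowest in tumour 3. Both genes are also expressed by tumour epithelium, so their levels do not report on macrophages alone.

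Gpnmb encodes a transmembrane glycoprotein of lysosome-rich cells (mm9 chromosome 6, 48986517 to 49008181). It lay at 0.142, 0.825 and 1.64 FPKM from 15, 84 and 186 implied fragments, and the 3 deposited intervals do not overlap. The range was 11.6-fold (Q adjusted p = 4.3e-38 over all genes listed above 0) and 8.82-fold with the trends removed. Its mean of 0.869 ± 0.750 FPKM (SD, n = 3) was not separated from 1 FPKM (limma adjusted p = 0.30). Gpnmb was lower than Trem2 in 3 of 3 tumours, by 3.19, 2.23 and 1.88 log2 units, although its own range was wider. Gpnmb also marks melanocytes and osteoclasts. The melanocyte enzymes Tyr and Dct and the osteoclast receptor gene Oscar were listed at 0 in all 3 tumours. The 4 melanocyte markers summed to 0.395, 0.193 and 0.737 FPKM, and the 3 osteoclast markers to 0.331, 1.24 and 0.551 FPKM. The osteoclast markers Ocstamp and Dcstamp were not found. Acp5 and Ctsk, placed in the list of Gpnmb-associated genes instead, lay at 4.27, 9.22 and 12.1 FPKM and at 6.96, 10.5 and 9.89 FPKM. The part of these cell types in the Gpnmb values was not tested. Mitf, whose product controls Gpnmb in several cell types, lay at 1.56, 1.51 and 1.19 FPKM, and at 1.10, 1.54 and 1.67 FPKM with the trends removed. It was not called as different between tumours on either scale, at ratios of 1.31 and 1.52. Its deposited intervals overlap, so its order is not resolved. Of 9 genes tested in the list of Gpnmb-associated genes, 6 were above 1 FPKM (66.7%, against 54.2% of all genes). The highest was Sdc4, a proteoglycan bound by GPNMB, at 207 ± 68.5 FPKM (SD, n = 3).

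Set against the general macrophage genes, the members fell into different patterns. The difference between each member and the mean of the 16 genes was taken in each tumour on the log2(FPKM + 0.1) scale. For Trem2 this difference was steady, at -2.41, -2.26 and -2.05 in tumours 1, 2 and 3, and its SD over tumours was 0.18 against 0.78 for Trem2 itself. For Arg1 the opposite held: the difference was 1.03, 0.53 and -0.23, with an SD of 0.64 against 0.21 for Arg1 itself. Arg1 was thus level across tumours in which the macrophage genes were not, and the ratio of Arg1 to Csf1r was 3.08, 1.88 and 0.988. With the trends removed that ratio was 2.61, 1.89 and 1.16, in the same order. Nos2 also had a larger SD after the subtraction, 0.51 against 0.34. For Mrc1, Cd163 and Msr1 the SD was larger after subtraction as deposited, at 0.56, 0.49 and 0.67 against 0.53, 0.38 and 0.18. It was smaller with the trends removed, at 0.59, 0.36 and 0.43 against 0.90, 0.43 and 0.81, so their relation to the macrophage genes depends on that correction. Retnla kept nearly all of its spread, with an SD of 2.42 after subtraction against 2.52 before. Gpnmb and Mgl2 lay between, with 0.85 and 0.75 after against 1.45 and 1.18 before. In all, 5 of 10 members had a smaller SD after subtraction, and 8 of 10 with the trends removed.

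**Figure D4:**
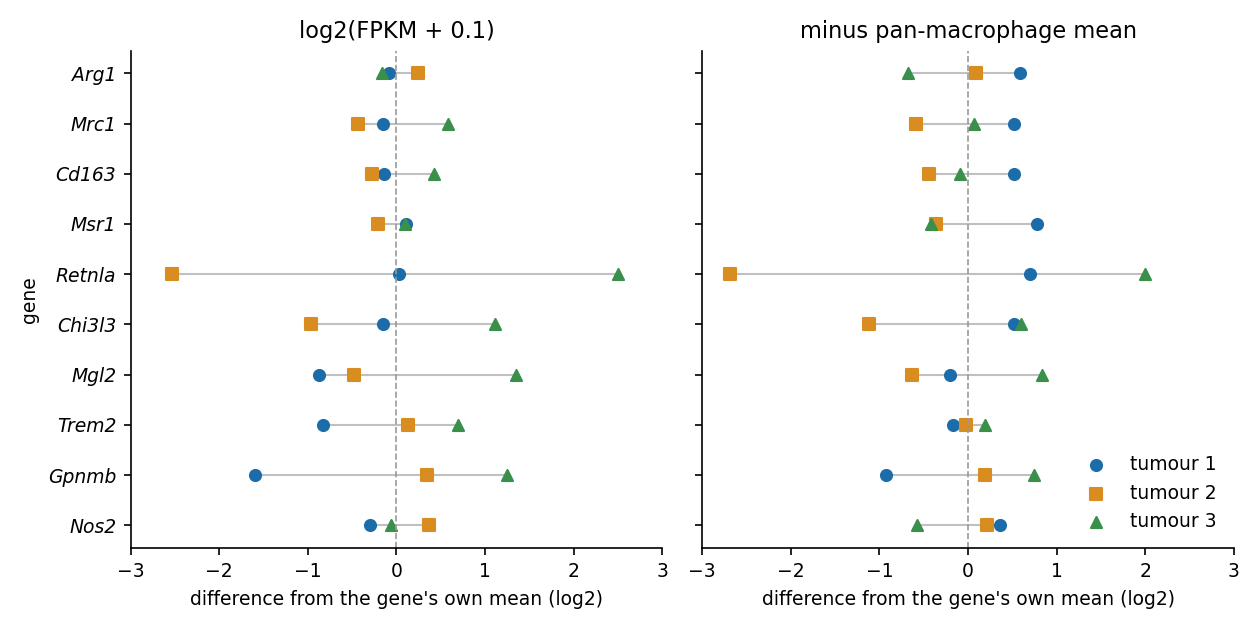
Deviation of each gene from its own mean over the 3 tumours, in log2 units, before (left) and after (right) subtraction of the mean log2 level of 16 general macrophage genes; circles, squares and triangles are tumours 1, 2 and 3, and grey lines join the extremes. Trem2 narrows after subtraction, Arg1 widens, and Retnla stays widest in both panels.

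Across the members, 6 of 10 were above 1 FPKM (Arg1, Mrc1, Cd163, Msr1, Mgl2 and Trem2), 2 were below (Chi3l3 and Nos2) and 2 were neither (Retnla and Gpnmb). The share above is near the 54.2% of all genes and is no result about the members. Of the 7 members averaging 1 FPKM or more, 4 differed between tumours (Mrc1, Retnla, Mgl2 and Trem2), against 32.5% of all genes, and all 4 were highest in tumour 3, against 13.2% of all genes for that call and direction. Without the minimum mean, 6 of 10 members differed, with Chi3l3 and Gpnmb added, against 34.4% of all genes. Without tumour 3 the count was 2 of those with enough expression, Retnla and Trem2. After removal of the GC and length trends the count was again 4, all 4 highest in tumour 3, against 15.5% of all genes for the call and 6.37% for the call and direction, but Msr1 took the place of Trem2. In all, 7 of 10 members were highest in tumour 3, which held for 45.4% of genes listed above 0 in all tumours. With the trends removed it held for 6 of the 7 with enough expression, against 37.3% of such genes. The median ratio of the highest to the lowest tumour was 2.05 for the 7 members tested and 1.74 for all genes tested. A range of at least 5-fold was found in 1 of the 7, against 2.78% of genes. Each tumour is 1 library, so the Q test sets these libraries against counting error and not against the spread within a mouse.

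The levels overlapped along much of the order. By mean log2 level the order was Arg1, Retnla, Mrc1, Trem2, Msr1, Cd163, Mgl2, Gpnmb, Chi3l3 and Nos2, and 0 of the 9 neighbouring pairs had ranges over tumours that did not overlap. By mean FPKM, Retnla came before Arg1 because of tumour 3. Of all 45 pairs, 27 had ranges that did not overlap and 35 stood in the same order in every tumour. The shares over pairs of all genes were not computed, so these counts only describe the members. Arg1 was apart from 8 of the 9 other members, the exception being Retnla. Retnla was apart from only 3, which were Chi3l3, Gpnmb and Nos2. Cd163 was sixth in each of the 3 tumours.

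The genes whose pattern over the 3 tumours was most like that of Arg1 and Mrc1 were sought among 154 genes of the fixed lists and the members, by the root mean square difference of log2 values centred on each gene's mean. With 3 values a gene, close matches are common, and the likeness is a description. For Arg1 the nearest was Cx3cr1, the fractalkine receptor gene, at a difference of 0.08 log2 units, with 3.51, 4.14 and 3.55 FPKM. Sms, for spermine synthase, and Cd44 followed at 0.09 and 0.12, or 0.36 and 0.25 with the trends removed. For Mrc1 the nearest were Cxcl9, an interferon-induced chemokine, at 0.10, Cd163 at 0.13 and Ddah2 at 0.14, or 0.13, 0.43 and 0.66 in that order with the trends removed. For Retnla, added after its values were seen, the nearest were Adipoq at 0.88, Lep at 1.08 and Cd209a at 1.19 log2 units, so none was close.

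Genes of the interleukin 4 and interleukin 13 pathway, known to turn on Arg1, Mrc1, Retnla and Chi3l3, were unevenly represented. Whether the pathway acted on these members here was not tested. Transcripts of interleukin 4 and interleukin 13 were scarce: Il13 was listed at 0 in all 3 tumours and Il4 at 0, 0 and 0.443 FPKM. Their receptor chain genes were present, with Il4ra at 6.20, 13.9 and 15.3 FPKM and Il13ra1 at 17.3, 14.5 and 3.48 FPKM. Il13ra1 with the trends removed was highest in tumour 2 instead, at 10.8, 15.6 and 5.21 FPKM. Il2rg, which encodes the common gamma chain found on blood cells, lay at 2.22, 1.30 and 5.47 FPKM, with tumour 2 lowest and tumour 3 highest as for Retnla. Stat6 lay at 10.7, 15.7 and 20.3 FPKM. Among other targets of this pathway Ccl17, Ccl22 and Ccl24 were all low, at 0.731 ± 0.699, 0.410 ± 0.430 and 0.227 ± 0.310 FPKM (SD, n = 3), each with its highest value in tumour 3. The transcription factor genes Irf4 and Klf4 were below 1 FPKM, at 0.279 ± 0.113 and 0.497 ± 0.105 FPKM (SD, n = 3). Of 24 genes of the pathway tested, 10 were above 1 FPKM (41.7%, against 54.2% of all genes), 9 below and 5 neither. Of 11 tested between tumours 5 differed, 2 of them with tumour 3 highest, against 32.5% and 13.2% of all genes. After trend removal 4 differed, 1 of them with tumour 3 highest, against 15.5% and 6.37%, and Il4ra lost the call at a ratio of 1.61. Jak2 and the cytokine gene Il33 kept the call and were lowest in tumour 3 on both scales. As deposited, Jak2 lay at 9.49, 3.12 and 2.06 FPKM and Il33 at 3.64, 3.74 and 1.17 FPKM.

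Genes of classical activation, the program to which Nos2 belongs, were not uniformly low. Of 25 tested, 12 were above 1 FPKM (48.0%, against 54.2% of all genes), 7 below (32.5% of all genes were) and 6 neither. The share above is near that of all genes and is no result about the program. Irf1, a transcription factor gene of the interferon response, lay at 23.1 ± 7.95 FPKM (SD, n = 3), and Il1b, an inflammatory cytokine, at 3.05, 9.42 and 13.5 FPKM. In contrast Il12b was below 1 FPKM at 0.461 ± 0.430 FPKM (SD, n = 3), Ifng at 0.135, 0.0703 and 0 FPKM, and Il6 at 0.0769 FPKM in tumour 1 and 0 in the others. The chemokine genes Cxcl9, Cxcl10 and Cxcl11 were each highest in tumour 3, at 2.91, 5.45 and 3.36 FPKM. Of 17 tested between tumours 11 differed, 9 of them with tumour 3 highest, against 32.5% and 13.2% of all genes. After trend removal 7 differed, all 7 with tumour 3 highest, against 15.5% and 6.37%. Nos2 was not separated between tumours.

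Macrophage growth factors and polarising cytokines were above 1 FPKM in 13 of 17 cases, or 76.5% against 54.2% of all genes. Csf1, the main macrophage growth factor, lay at 6.04, 8.08 and 9.71 FPKM, whereas Csf2 was at 0, 0.0425 and 0.0382 FPKM. The highest of that list was Ccl8, a monocyte-attracting chemokine, at 19.0, 31.5 and 125 FPKM. Next came Hif1a, a hypoxia factor that can act on Arg1, at 30.8, 13.4 and 9.26 FPKM as deposited, with a ratio of 3.32 that was 1.36 with the trends removed. Il10, which can raise Cd163, was below 1 FPKM at 0.0616, 0.224 and 0.373 FPKM.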

How the data were processed

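The authors deposited 1 table a tumour, which per the file headers holds an FPKM, its interval bounds and a status for each gene. TopHat, Cufflinks and mm9 are named, without roles, in the submitters' processing notes. Versions, the gene annotation and the strand setting of the counting were not given in the sources used here; overlapping and antisense genes are therefore uncertain. Per the labels' protocols, ribosomal RNA was depleted and directional random-primed libraries were made from 50 ng. Tumours were numbered in accession order. Rows of 221 repeated symbols were added up, and 182 symbols without status OK in all tumours were left out. For levels, limma 3.58.1 (R 4.3.3) was run on log2((FPKM + 0.1)/(1 + 0.1)) against 0, an intercept-only model with trend and robust moderation. Between tumours, Cochran's Q with 2 degrees of freedom used standard errors taken from the deposited bounds; it was run on genes averaging 1 FPKM or more, and a call also needed a highest-to-lowest ratio of 2 or more. All p-values across genes are Benjamini-Hochberg adjusted over all genes tested, at 0.05. GC content and length came from the longest coding transcript in GENCODE vM21 (98.3% of symbols), and lowess trends (span 0.3) were removed. Promoter sequences are from RefSeq, used by gene name only, since their build differs from mm9. Both tests were also run on simulated data, and the outcomes are not given here. The members and lists were chosen with earlier results of these data known. Named genes are the members, the fixed pairs, list genes that were highest or lowest, those that differed between tumours and those nearest in pattern; others were chosen after their values were seen. Genes of the lists that were not found under the symbols used are not analysed here.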

Additional observations from a re-analysis of the deposited data

How the results depend on the processing

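The alternatives were 2 other pseudocounts, 2 scalings, stricter or no filters, other ratios, plain limma, removal of GC and length trends, and leaving out each tumour; trend removal was added after seeing the data for the order, the pairs, the lists and the subtraction, as was the neutrophil sum without Ltf. All 14 pairs of genes kept their sign under all 8 alternatives run for them. The count of members below 1 FPKM, 2, was 1 with rescaling to 1000000 FPKM, 0 among genes of at least 0.5 FPKM (which removes both) and 1 to 2 when a tumour was left out. Over the 9 pathway and family lists together, 89 genes were above and 39 below; when a tumour was left out the count above was 59 (tumour 2) to 81, and the count below was 19 with rescaling and 0 with the 0.5 FPKM filter. The 4 members that differed between tumours were 2 at a ratio of 3, and 2 to 3 when a tumour was left out. Separated neighbours in the order, 0, were 1 with pseudocount 1 and 2 to 5 when a tumour was left out. Members with a smaller SD after subtraction, 5, were 8 with trends removed and 3 to 8 without a tumour. Gpnmb against 1 FPKM, -0.59 log2 units, was 0.70 with rescaling and -1.22 to 0.21 when a tumour was left out. The cause of these shifts was not tested, apart from the filters and smaller samples themselves. No paired analysis was possible because there is only 1 group. Chi3l3 and Nos2 rest on at most 24.0 and 17 fragments a tumour, which limits their order.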
